A study of Homo sapiens with 27 samples.

Results

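The 44 genes that encode the chains of human collagens were followed in 27 RNA-seq libraries of 2 cancer cell lines. Members were the rows of the deposited count table whose Entrez identifier belongs to a protein-coding gene with a symbol made of COL, a number, A and a number, and 44 of 24566 rows met that rule. MDA-MB-231, a line from a human breast adenocarcinoma, was cultured untreated, with CKI (compound kushen injection, a plant extract mixture) at 1 mg/ml, with 5-FU (fluorouracil, a drug that blocks thymidylate synthesis) at 10 ug/ml, or with CKI plus 5-FU. A431, a line from a human epidermoid carcinoma of the skin, was cultured untreated, with a vehicle control, with the same amount of CKI, with doxorubicin (a topoisomerase II poison), or with CKI plus doxorubicin. Each of the 9 groups held 3 biological replicates, and every culture was sampled at 48 h. Each line is a single established tumour line grown alone in serum-containing medium, the composition of the vehicle is not described, and no dose is given here for doxorubicin because the labels name more than one.

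Collagens are built from 3 chains wound into a triple helix, which can be identical or come from different genes, so the chains available in a cell decide which collagen it can assemble. Fibrillar collagens form the fibrils of skin, tendon, bone and cartilage, collagen IV forms the sheet of basement membranes, and other types decorate fibrils, form beaded filaments, anchor the epidermis or span the plasma membrane. Squamous epithelial cells are known for collagens XVII and VII, which tie them to the basement membrane beneath, and mesenchymal-type cells for fibrillar and filament collagens. The members were grouped by these structural types into 11 fibrillar, 6 collagen IV, 5 beaded filament, 1 anchoring fibril, 3 short-chain network, 10 fibril-associated, 4 transmembrane, 2 multiplexin and 2 other genes.

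The 6 collagen IV genes lie in 3 head-to-head pairs, and their results are given by pair, so the DNA between the starts of each pair is shown first. RefSeq promoter windows (GRCh38.p14, 250 bases before to 50 after each start) were found for 32 of the 44 members. The COL4A1 and COL4A2 starts were 127 bases apart, and the stretch between them is chr13:110307158-110307283. For the other pairs the stretch covered by both windows is shown, at chr2:227164374-227164455 for COL4A4 and COL4A3, whose starts were 419 bases apart, and at chrX:108439588-108439708 for COL4A6 and COL4A5, whose starts were 380 bases apart. All are written 5′ to 3′ on the plus strand, and capitals mark matches to the CCAAT box (CCAAT or ATTGG) and the GC box (GGGCGG or CCGCCC).
COL4A1 and COL4A2: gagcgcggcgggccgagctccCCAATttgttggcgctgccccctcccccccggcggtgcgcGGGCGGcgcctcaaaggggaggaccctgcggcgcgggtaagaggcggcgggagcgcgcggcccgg
COL4A4 and COL4A3: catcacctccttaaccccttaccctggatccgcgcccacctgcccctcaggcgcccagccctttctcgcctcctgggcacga
COL4A6 and COL4A5: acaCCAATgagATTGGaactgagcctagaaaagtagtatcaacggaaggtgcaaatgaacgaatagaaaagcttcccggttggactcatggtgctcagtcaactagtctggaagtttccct
The first stretch held 1 CCAAT box and 1 GC box, the second held neither, and the third held 2 CCAAT boxes and no GC box. None held TATAAA or TTTATA, and no matches overlapped. The stretches are 126, 82 and 121 bases long, shorter than the full windows of 250 bases before to 50 after a start. Shares over full windows are therefore no rate for the stretches. Over all 35116 full promoter windows in the table, 34.6% held a CCAAT box, 45.0% a GC box and 11.5% TATAAA on either strand. Of the 44 full windows of the collagen genes, 31.8%, 54.5% and 18.2% did. A match describes letters in these windows and no bound factor.

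The A431 libraries held between 17757206 and 21756536 counts and those of MDA-MB-231 between 19871048 and 22809339. Levels are in CPM, counts scaled to library size with TMM factors within a line, and 3 counts in a library, taken as the floor, were 0.138 to 0.169 CPM in A431 and 0.132 to 0.151 CPM in MDA-MB-231. Levels of different genes are compared only per kb of the canonical transcript. Of the 8 squamous epithelial markers, 7 were called higher in untreated A431 cells than in untreated MDA-MB-231 cells, and all 4 mesenchymal-type markers were called lower. The fibroblast markers DCN, LUM, PDGFRA, PDGFRB and FAP summed to between 0.886 and 3.52 CPM in the A431 libraries and between 5.29 and 12.6 CPM in the MDA-MB-231 libraries. In bulk RNA, fewer cells with a transcript and less of it per cell cannot be told apart. In replicate 1 of the untreated MDA-MB-231 group, deviations of genes from the other replicates correlated with GC content across genes (rho = -0.66), and the median member sat 0.26 lower on the log2 scale. Members had a median GC content of 55%, against 48.5% over all genes, so counts of calls without that library are given with the comparisons that use it.

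In untreated MDA-MB-231 cells 20 of the 44 members were expressed, meaning at least 1 CPM in all 3 replicates, and 14 had at most 3 counts in every library. The highest levels per kb belonged to COL13A1, COL18A1, COL6A1, COL4A2, COL8A1 and COL5A1. COL13A1 (chromosome 10, 71561636 to 71724031 on GRCh37), a membrane-spanning collagen of cell adhesions, measured 111, 120.5 and 123 CPM per kb. COL18A1 (chromosome 21, 46825080 to 46933634), a basement membrane collagen whose end fragment is endostatin, measured 36.1, 84.1 and 89.9 CPM per kb. Its replicates overlapped none of those of COL13A1 but spread over a range wider than its lowest value. COL6A1 (chromosome 21, 47401684 to 47424964), a chain of the beaded filament collagen VI, was at 32.9, 50.8 and 54.7 CPM per kb, COL4A2 at 26.8, 43.6 and 43.98, COL8A1 at 36.4, 37.4 and 37.96 and COL5A1 at 23.6, 42.9 and 44.7. These 4 genes and COL18A1 overlapped in range over the replicates. Within each library COL18A1 was above COL6A1, COL4A2 and COL5A1, and COL6A1 was above COL4A2 and COL5A1. The place of COL8A1 and the order of COL4A2 and COL5A1 differed between libraries. COL8A1 is a chain of the short network collagen of vessel walls and cornea, and COL5A1 is a chain of collagen V, which sets the width of collagen I fibrils. The 2 chains of collagen I itself were low, at 2.51 ± 0.972 CPM per kb (SD, n = 3) for COL1A1 and 1.47 ± 0.231 for COL1A2.

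Untreated A431 cells expressed 19 of the 44 members (17 when scaled by library total alone), and 17 had at most 3 counts in every library. COL17A1 (chromosome 10, 105791044 to 105845638), the hemidesmosome collagen that anchors keratinocytes, measured 123, 121 and 135 CPM per kb and stood above every other member. COL4A2 (chromosome 13, 110958159 to 111165556) followed at 50.2, 49.6 and 58.000 CPM per kb, and COL4A1 (chromosome 13, 110801310 to 110959504), its partner in the common collagen IV chain trio, at 16.6, 17.1 and 18.2. These 3 did not overlap. COL7A1, the collagen of anchoring fibrils below the epidermis, was at 14.8, 12.8 and 10.2 CPM per kb, COL27A1, a fibrillar collagen of cartilage, at 14.4, 13.3 and 9.63, and COL9A3, a chain of the cartilage collagen IX, at 12.6, 11.9 and 12.1. The last 3 overlapped with each other.

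**Figure D1:**
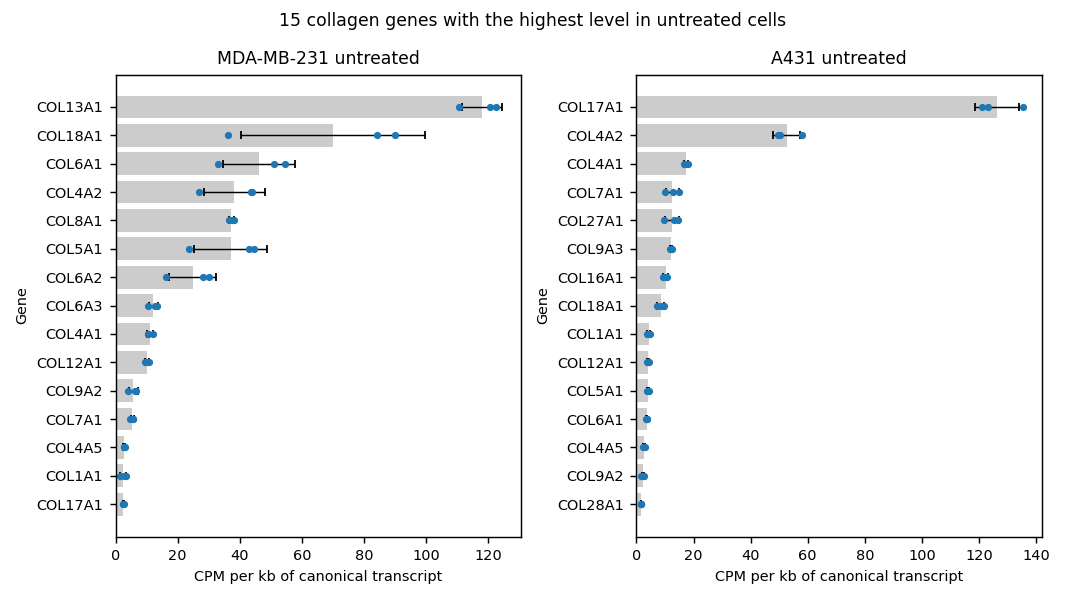
Levels of the 15 highest collagen genes in untreated cells of each line, in CPM per kb of canonical transcript. Bars are means, error bars SD and points the 3 replicates. COL13A1 led in MDA-MB-231 and COL17A1 in A431, and for COL18A1, COL6A1, COL4A2, COL5A1 and COL6A2 in MDA-MB-231 1 replicate sat below the other two.

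The 2 untreated lines were compared in a fit over their 6 libraries, with edgeR's quasi-likelihood test. A gene was called when its Benjamini-Hochberg adjusted p-value was under 0.05 and its absolute log2 fold change over 1. Of the 27 members that passed the filter on low counts, 10 were called higher in A431 and 12 higher in MDA-MB-231, and 41.5% of all genes tested were called (19.7% higher in A431 and 21.8% lower). Without untreated MDA-MB-231 replicate 1 the count of calls was also 22. COL17A1 was at 691, 679 and 759 CPM in A431 and 15.2, 13.9 and 12.6 in MDA-MB-231, higher in A431 by 5.63 ± 0.12 (SE, adjusted p = 3.1e-08) on the log2 scale. COL28A1, a collagen with von Willebrand factor domains, was at 7.33, 6.56 and 6.18 CPM in A431 and 0.05296, 0.0933 and 0.0998 in MDA-MB-231, higher by 6.19 ± 0.28 (SE, adjusted p = 6.4e-07). COL6A3, the long chain of collagen VI, went the other way, with 110.2, 139 and 134 CPM in MDA-MB-231 and 0, 0.1103 and 0.0631 in A431. That is 3 counts in all over the A431 libraries, for a ratio of A431 to MDA-MB-231 of 0.000448 (exact 95% interval 9.24e-05 to 0.00131, counting error only). COL8A1 was at 201, 206 and 209 CPM in MDA-MB-231 and 0.179, 0.331 and 0.252 in A431, a log2 difference of -9.65 ± 0.16 (SE, adjusted p = 2.4e-08). COL13A1 (log2 difference -8.68), COL6A2 (-6.59) and COL6A1 (-3.75) were also lower in A431, while COL9A3 (4.82), COL16A1 (3.95), COL8A2 (3.19) and COL27A1 (2.71) were higher. Of the 2 collagen VIII chains, COL8A1 was higher in MDA-MB-231 and COL8A2 in A431. COL4A1 and COL4A2 were not called, at log2 differences of 0.61 and 0.42.

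**Figure D2:**
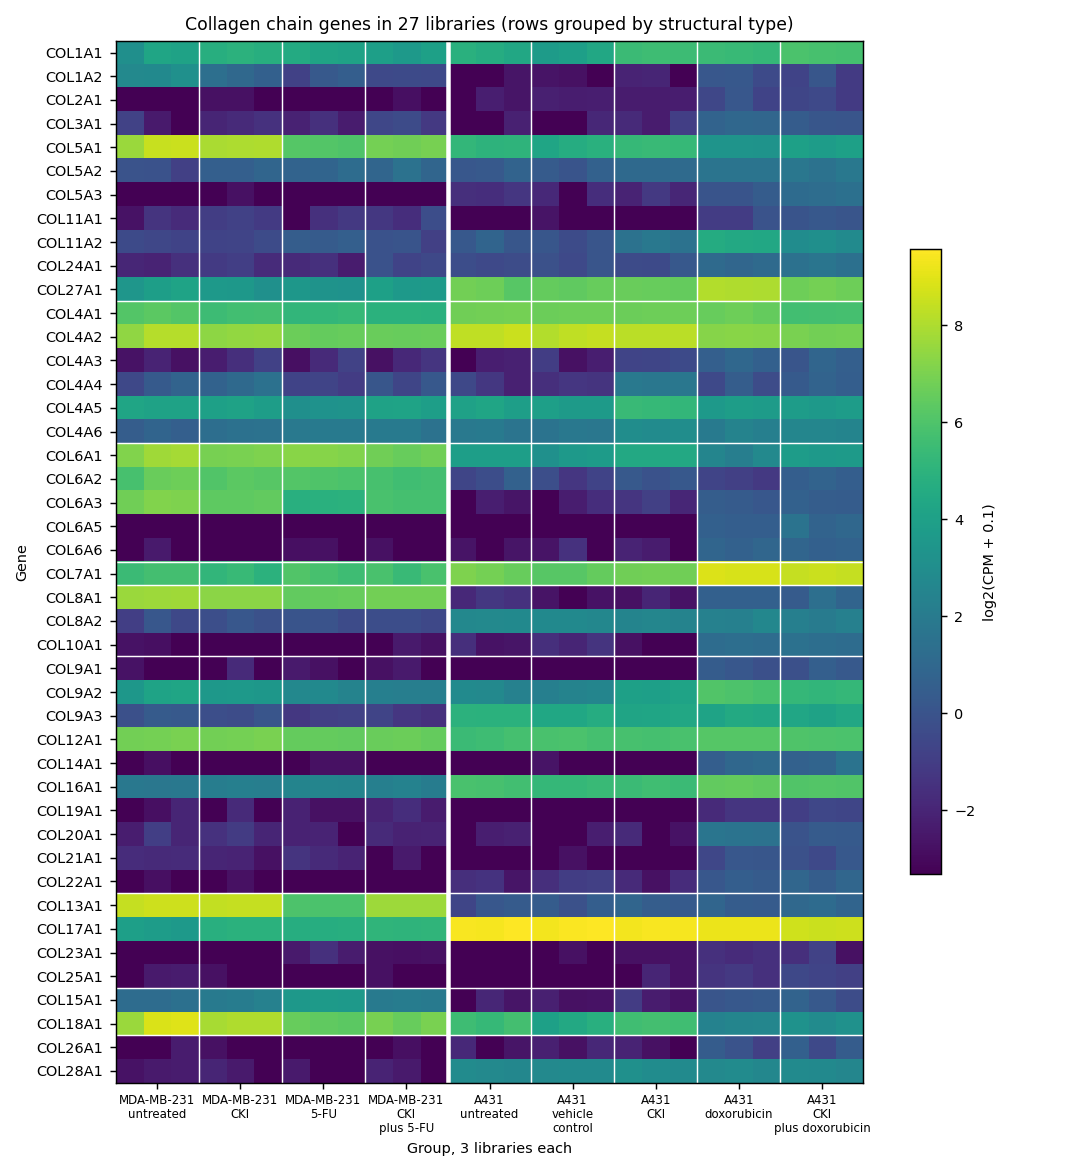
Levels of all 44 collagen genes (rows, grouped by structural type) in all 27 libraries (columns, 3 per group), as log2(CPM + 0.1). The colour scale runs from the darkest for genes at 0 to the brightest for COL17A1 in A431. Many rows that are dark in the untreated, vehicle and CKI libraries of A431 are lighter in both doxorubicin groups.

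In MDA-MB-231 the summed level of all members went from 2259 ± 462 CPM (SD, n = 3) untreated to 1789 ± 57.8 with CKI, 932 ± 36.7 with 5-FU and 1141 ± 43.9 with CKI plus 5-FU. The untreated libraries, at 1727 to 2563 CPM, overlapped with the CKI libraries, at 1723 to 1827 CPM. The number expressed stayed between 20 and 22 of 44. Of the 26 members tested in this line, 23 passed the filter on low counts in the untreated libraries alone. COL5A2, COL8A2 and COL24A1 entered the test only through treated groups. The comparisons with untreated cells share the untreated libraries.

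CKI alone called few collagen genes in MDA-MB-231. Of the 23 members that passed the filter in untreated cells alone, 1 was called higher and 1 lower, where 2.41% and 2.25% of all such genes were. Of the 26 tested, 2 were called higher and 1 lower, where 5.96% of all genes tested were called (3.76% higher and 2.21% lower), and the median log2 fold change was -0.18 for members and -0.01 for all genes. Without untreated replicate 1 the count of calls was also 3. COL17A1, the hemidesmosome collagen, measured 15.2, 13.9 and 12.6 CPM untreated and 28.1, 29.5 and 29.9 with CKI, and rose by 1.07 ± 0.08 (SE, adjusted p = 1e-06). All CKI libraries were above all untreated ones. COL1A2, the second chain of collagen I, measured 6.62, 6.91 and 8.78 CPM untreated and 2.55, 1.93 and 1.47 with CKI, and fell by 1.91 ± 0.24 (SE, adjusted p = 9.6e-05). The groups did not overlap. COL1A1, which pairs with it, was not called and measured 8.31, 19.2 and 16.9 CPM untreated and 27.5, 30.7 and 27.03 with CKI. Every CKI library of COL1A1 was above every untreated one. COL5A2, the partner chain of COL5A1, rose by 1.04 ± 0.31 (SE, adjusted p = 0.02), from 0.9003, 0.8401 and 0.449 to 1.38, 1.41 and 1.72 CPM. It had entered the test only through treated groups, and its call was lost without replicate 3 of either group.

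With 5-FU, collagen transcripts fell in MDA-MB-231 across several types. Of the 23 members that passed the filter in untreated cells alone, 10 were called lower and 3 higher, where 7.42% and 4.21% of all such genes were. Their median log2 fold change was -0.94, against -0.03 over all such genes. Over all 26 tested members the calls were 10 lower and 4 higher, where 13.3% of all genes tested were called (6.01% higher and 7.31% lower). The count without untreated replicate 1 was also 14.

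Of the transmembrane genes, COL13A1 fell from 348, 379 and 386 CPM untreated to 63.2, 59.99 and 60.8 with 5-FU, a fall of 2.60 ± 0.06 (SE, adjusted p = 5.5e-11) on the log2 scale. The groups did not overlap. COL17A1 went from 15.2, 13.9 and 12.6 to 26.4, 26.4 and 26.7 CPM, a log2 fold change of 0.93 that was under the threshold of 1. Among fibrillar genes, COL5A1 fell by 2.20 ± 0.18 (SE, adjusted p = 1.1e-06), from 199, 362 and 377 to 71.04, 69.3 and 64.02 CPM. Even the low untreated replicate exceeded the treated libraries. COL1A2 fell further by fold, by 2.93 ± 0.27 (SE, adjusted p = 2.5e-06), from 6.62, 6.91 and 8.78 to 0.463, 1.12 and 1.36 CPM. COL1A1, at 23.7, 18.5 and 17.04 CPM with 5-FU, was not called. COL5A2, a chain of the same collagen V as COL5A1, had entered the test only through treated groups. It was called higher, by 1.32 ± 0.30 (SE, adjusted p = 0.0023), at 1.62, 1.65 and 2.23 CPM. COL11A2, a chain of the cartilage fibril collagen XI, measured 0.636, 0.5601 and 0.499 CPM untreated and 1.297, 1.21 and 1.404 with 5-FU and rose by 1.203 ± 0.26 (SE, adjusted p = 0.0019).

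The filament collagen VI did not fall evenly with 5-FU. COL6A3 fell by 2.12 ± 0.09 (SE, adjusted p = 5.6e-09), from 110.2, 139 and 134 CPM untreated to 28.2, 29.3 and 30.3. COL6A1, at 138, 214 and 229.8 CPM untreated and 153, 149.9 and 139 with 5-FU, and COL6A2, at 55.7, 97.1 and 104 and 69.5, 65.1 and 60.04, were not called and overlapped between the groups. The usual collagen VI molecule holds a chain of each of these genes. In collagen IV, COL4A2 fell by 1.35 ± 0.15 (SE, adjusted p = 9.9e-06), from 173, 281 and 283 to 102, 92.6 and 94.7 CPM, and COL4A1 had a log2 fold change of -0.94, from 68.2, 78.9 and 69.2 to 36.1, 37.4 and 39.4 CPM. Both genes of this head-to-head pair were lower in every treated library. COL4A6 rose by 1.35 ± 0.16 (SE, adjusted p = 2e-05), from 1.27, 1.68 and 1.397 to 3.57, 3.79 and 3.83 CPM, while its neighbour COL4A5 went from 19.01, 16.99 and 17.1 to 8.47, 9.33 and 9.78 CPM, a log2 fold change of -0.94 that was not called. Every treated library of COL4A6 was above, and every one of COL4A5 below, the untreated libraries. COL4A4, a chain of the kidney basement membrane, fell by 1.25 ± 0.42 (SE, adjusted p = 0.023), from 0.583, 1.17 and 1.65 to 0.509, 0.534 and 0.387 CPM.

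The 2 multiplexins, basement membrane collagens with long interrupted helices, moved in opposite directions with 5-FU. COL18A1 measured 195, 455 and 486 CPM untreated and 93.6, 86.8 and 78.4 with 5-FU and fell by 2.13 ± 0.26 (SE, adjusted p = 2.4e-05). COL15A1 measured 2.22, 2.29 and 2.59 CPM untreated and 11.7, 12.97 and 12.6 with 5-FU and rose by 2.39 ± 0.12 (SE, adjusted p = 3e-08), the largest rise of the members tested. Neither overlapped between the groups. COL18A1 shares 18.5% of its exonic length with SLC19A1 on the opposite strand, and the libraries were unstranded, so reads from the shared stretch cannot be assigned to either gene. SLC19A1 was at 2.77 CPM on average untreated and 0.414 with 5-FU. COL8A1 fell by 1.16 ± 0.05 (SE, adjusted p = 7.6e-09), from 201, 206 and 209 to 88.96, 91.8 and 94.3 CPM. Of the fibril-associated genes, COL9A2 fell by 1.37 ± 0.17 (SE, adjusted p = 2.7e-05), from 11.3, 17.97 and 18.9 to 6.34, 6.95 and 5.37 CPM, and COL9A3 fell by 1.32 ± 0.30 (SE, adjusted p = 0.0026), from 0.794, 1.21 and 1.097 to 0.324, 0.437 and 0.484 CPM. Both encode chains of collagen IX, and every treated library was below every untreated one. COL12A1, a collagen on the surface of fibrils and the highest of its type in this line, was not called at 112, 119 and 126 CPM untreated and 92.9, 90.9 and 89.6 with 5-FU.

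**Figure D3:**
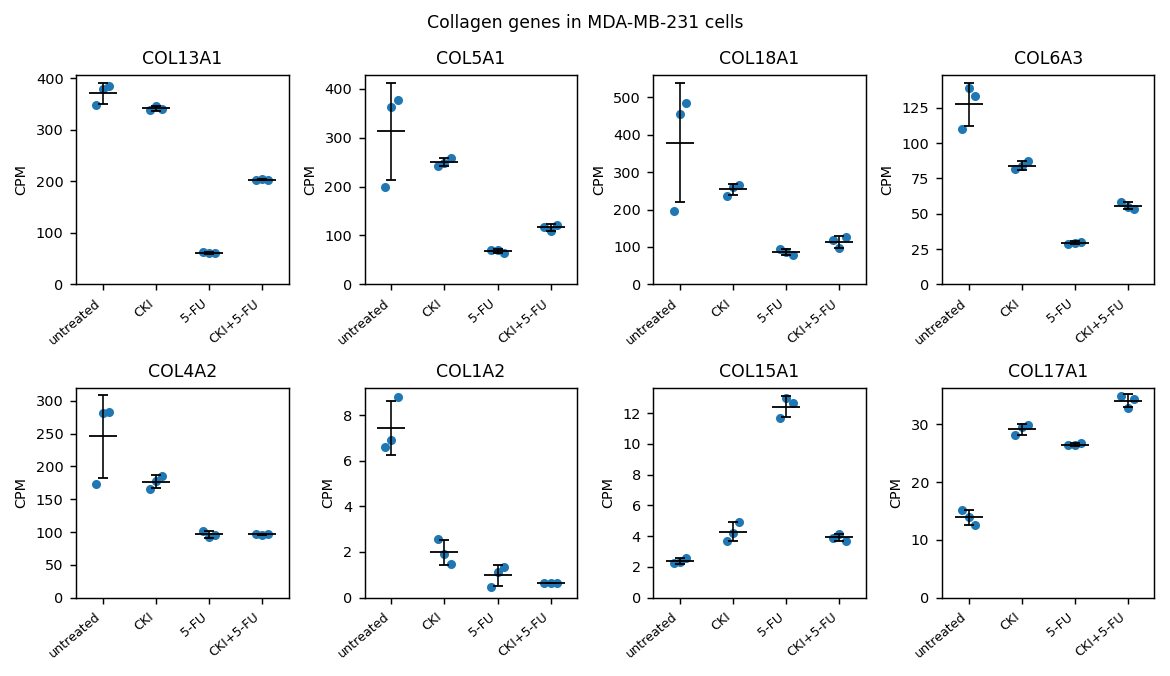
CPM of 8 collagen genes in the 4 groups of MDA-MB-231. Points are the 3 replicates, horizontal bars the mean and error bars the SD. COL13A1, COL5A1, COL18A1, COL6A3, COL4A2 and COL1A2 were lower with 5-FU than untreated in every library, COL15A1 was highest with 5-FU alone, and COL17A1 was higher in all 3 treated groups.

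With CKI plus 5-FU, 2 of the 23 members that passed the filter in untreated cells were called higher and 8 lower, where 2.58% and 4.89% of all such genes were, and the median log2 fold change was -0.72 for these members. Over the 26 tested, 4 were called higher and 8 lower, where 9.04% of all genes tested were called (4.29% higher and 4.76% lower), and without untreated replicate 1 the count was 14. COL1A2 was at 0.618, 0.633 and 0.631 CPM and fell by 3.55 ± 0.29 (SE, adjusted p = 1.6e-06), and COL9A2 was at 4.66, 4.52 and 4.46 CPM and fell by 1.82 ± 0.18 (SE, adjusted p = 6.1e-06). Both were the largest falls of this comparison. COL18A1 (119.5, 96.5 and 127 CPM) fell by 1.73 ± 0.26 (SE, adjusted p = 0.00017), COL9A3 (0.523, 0.316 and 0.243 CPM) by 1.51 ± 0.31 (SE, adjusted p = 0.0016) and COL5A1 (118, 109 and 122 CPM) by 1.43 ± 0.18 (SE, adjusted p = 4.6e-05). All 3 stayed below every untreated library. Both genes of the first collagen IV pair were called lower here, COL4A2 (97.4, 95.8 and 97.2 CPM) by 1.34 and COL4A1 (29.7, 30.5 and 28.7 CPM) by 1.28. COL24A1, a minor fibrillar collagen, rose by 1.79 ± 0.41 (SE, adjusted p = 0.0034), from 0.159, 0.14003 and 0.249 to 0.856, 0.497 and 0.582 CPM, a level that stayed under 1 CPM. COL5A2 rose by 1.54 ± 0.29 (SE, adjusted p = 0.00093) to 1.76, 2.85 and 1.75 CPM, COL17A1 by 1.29 ± 0.07 (SE, adjusted p = 1.1e-07) to 34.97, 32.8 and 34.4 CPM, and COL4A6 by 1.23 ± 0.16 (SE, adjusted p = 6.9e-05). Among these rises, COL24A1 and COL5A2 had entered the test only through treated groups.

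Against 5-FU alone, adding CKI called 2 members higher and 1 lower, where 9.77% of all genes tested were called (5.26% higher and 4.51% lower). COL13A1 was at 63.2, 59.99 and 60.8 CPM with 5-FU and 203, 204 and 203 with both agents, higher by 1.73 ± 0.06 (SE, adjusted p = 2.5e-09). It stayed below all untreated libraries. COL15A1 went the other way, from 11.7, 12.97 and 12.6 to 3.901, 4.16 and 3.69 CPM, and fell by 1.66 ± 0.12 (SE, adjusted p = 4.8e-07). COL24A1, which had not passed the filter in untreated libraries alone, was higher by 1.84 ± 0.41 (SE, adjusted p = 0.0026), from 0.185, 0.243 and 0.0968 to 0.856, 0.497 and 0.582 CPM. COL6A3 and COL5A1 were higher with both agents than with 5-FU alone in every library, at 58.5, 54.9 and 53.5 and 118, 109 and 122 CPM, with log2 fold changes of 0.93 and 0.77 that were under the threshold of 1.

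Against CKI alone, adding 5-FU called 6 members lower and none higher, where 3.81% of all genes tested were called (1.26% higher and 2.54% lower). The count was 3, of which 2 were among these 6, once offsets for GC content and length were included, and fold changes over all genes in this comparison correlated with GC content (rho = -0.52). COL1A2 fell by 1.65 ± 0.34 (SE, adjusted p = 0.0026), from 2.55, 1.93 and 1.47 CPM with CKI to 0.618, 0.633 and 0.631, and COL4A4 fell by 1.27 ± 0.34 (SE, adjusted p = 0.01), from 1.58, 2.02 and 2.68 to 0.999, 0.542 and 1.07 CPM. The other 4, COL9A2 (-1.36), COL18A1 (-1.15), COL9A3 (-1.15) and COL5A1 (-1.10), were not called with those offsets.

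The interaction of CKI and 5-FU, the log2 effect of CKI in the presence of 5-FU minus that in its absence, was called for 6 members, 4 above 0 and 2 below, where 6.84% of all genes tested were called (3.04% above 0 and 3.81% below). The count was 8 without untreated replicate 1. For COL13A1 the difference of effects was 1.85 ± 0.08 (SE, adjusted p = 5.2e-08) and for COL6A3 it was 1.53 ± 0.12 (SE, adjusted p = 5.1e-06), both genes that 5-FU lowered less when CKI was present. COL5A1 had a difference of 1.10 ± 0.25 (SE, adjusted p = 0.0061), a call lost without untreated replicate 2 or replicate 3. COL4A5 had 1.01 ± 0.14 (SE, adjusted p = 0.0003), and measured 19.01, 16.99 and 17.1 CPM untreated, 16.02, 16.8 and 14.4 with CKI, 8.47, 9.33 and 9.78 with 5-FU and 17.2, 17.6 and 14.7 with both. This value lay at the threshold of 1 and its call was lost in 6 of 19 alternatives. COL15A1, raised by 5-FU, had a difference of -2.51 ± 0.18 (SE, adjusted p = 3.4e-06). For COL1A1 it was -1.37 ± 0.34 (SE, adjusted p = 0.0089), with 15.6, 12.1 and 16.2 CPM under both agents.

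In A431 the summed level of all members was 1676 ± 46.7 CPM untreated, 1523 ± 114 with vehicle, 1650.0 ± 30.5 with CKI, 1937 ± 29.9 with doxorubicin and 1378 ± 14.02 with both (SD, n = 3). The number expressed rose from 19 of 44 untreated and 17 with vehicle to 21 with CKI and 31 in each doxorubicin group. Of the 41 members tested in this line, 22 passed the filter in the untreated and vehicle libraries alone, called control libraries here. The other 19 entered only through treated groups. The comparisons with untreated cells share the untreated libraries.

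With the vehicle control against untreated A431 cells, 2 of 41 members tested were called lower and none higher, where 2.54% of all genes tested were called (1.05% higher and 1.5% lower). Fold changes over all genes in this comparison correlated with GC content (rho = -0.58). COL18A1 was at 47.1, 39.4 and 52.6 CPM untreated and 16.03, 22.1 and 27.6 with vehicle and fell by 1.08 ± 0.13 (SE, adjusted p = 1.3e-06), a call lost with offsets for GC content and length, without untreated replicate 3 and without vehicle replicate 1. COL8A1 was at 0.179, 0.331 and 0.252 CPM untreated and 0.0589, 0 and 0.0553 with vehicle, which is 13 counts over the untreated libraries and 2 over the vehicle libraries, for a ratio of 0.143 (exact interval 0.0157 to 0.631) of vehicle to untreated that covers counting error only. Its call was lost without replicate 2 of either group. Comparisons below are with untreated cells unless the vehicle is named.

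Of the 6 collagen IV genes, 4 were called higher with CKI in A431, and 2 of these, COL4A3 and COL4A4, entered the test only through treated groups. Of the 22 members that passed the filter in control libraries, 4 (COL4A5, COL4A6, COL9A2 and COL11A2) were called higher and none lower, where 9.97% and 11.6% of all such genes were. The median log2 fold change was 0.23 for these members and -0.04 over all such genes. Over all 41 tested, 8 were called higher and 1 lower, and 22.4% of all genes tested were called (12% higher and 10.4% lower). Leaving out single libraries gave 6 to 10 calls, with 6 when untreated replicate 1 was left out. The share of members called was 22%, near that over all genes. The endothelial markers summed to 37.96 to 40.7 CPM with CKI and 21.95 to 25.6 untreated, with 1 called higher and 1 lower, and the fibroblast markers to 1.94 to 2.28 and 1.19 to 1.45 CPM, with 1 of 4 called higher. Their part in the result was not tested.

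The 4 collagen IV genes called higher make up the COL4A5 pair and the COL4A3 pair. COL4A5 measured 16.4, 18.9 and 15.02 CPM untreated, 15.6, 12.8 and 12.8 with vehicle and 42.3, 40.1 and 37.2 with CKI, and rose by 1.25 ± 0.09 (SE, adjusted p = 3.4e-11). COL4A6, its head-to-head neighbour, measured 3.58, 3.696 and 2.97 CPM untreated, 2.89, 3.42 and 3.38 with vehicle and 7.895, 7.39 and 7.83 with CKI, and rose by 1.17 ± 0.14 (SE, adjusted p = 7.9e-08). No CKI library of either gene overlapped with a control library. COL4A4 went from 0.596, 0.331 and 0.126 CPM to 3.58, 3.37 and 3.33 and rose by 3.25 ± 0.32 (SE, adjusted p = 4.9e-09). COL4A3 measured 0, 0.1103 and 0.126 CPM untreated and 0.533, 0.546 and 0.635 with CKI, a rise of 2.76 ± 0.68 (SE, adjusted p = 0.00098) that stayed under 1 CPM. The size of this rise rests on 4 counts over the untreated libraries. Of the common chains, COL4A1 was at 109, 112 and 119 CPM untreated and 102, 106 and 105 with CKI, and COL4A2 at 324, 319.8 and 374 and 297, 305 and 299, and neither was called.

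Outside collagen IV, COL9A2 went from 7.04, 6.62 and 4.98 to 15.9, 15.3 and 17.7 CPM with CKI and rose by 1.38 ± 0.11 (SE, adjusted p = 1.6e-10), and COL11A2 went from 1.07, 1.65 and 1.01 to 2.81, 3.52 and 2.81 CPM and rose by 1.27 ± 0.21 (SE, adjusted p = 1.1e-05). Both had all CKI libraries above all untreated ones. The remaining calls rested on few counts. COL3A1, the fibrillar collagen of vessels and soft tissue, had 2 counts over the untreated libraries and 14 with CKI, for a ratio of 5.95 (exact interval 1.37 to 53.95), COL6A3 had 3 and 18, for a ratio of 5.101 (exact interval 1.49 to 27.04), and COL10A1, a collagen of growth plate cartilage, had 6 and 1, for a ratio of 0.142 (exact interval 0.00308 to 1.17). All 3 lost their call when single libraries were left out. COL17A1 (649, 684 and 670.1 CPM), COL7A1 (111, 114 and 109 CPM) and COL27A1 (97.7, 96.4 and 92.8 CPM) were not called with CKI.

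**Figure D4:**
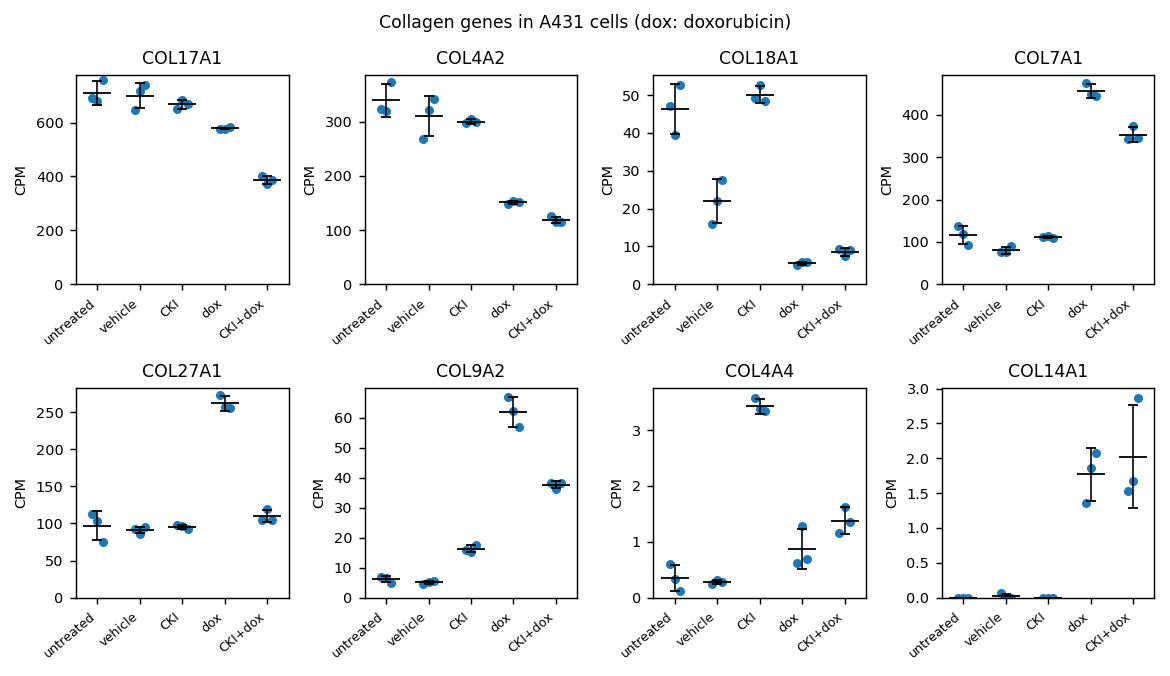
CPM of 8 collagen genes in the 5 groups of A431 (dox is doxorubicin). Points are the 3 replicates, horizontal bars the mean and error bars the SD. COL7A1 and COL9A2 were highest with doxorubicin alone, COL4A4 with CKI alone, COL18A1 and COL4A2 were lowest in the doxorubicin groups, and COL14A1 was at 0 in the untreated and CKI libraries.

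With doxorubicin in A431, COL7A1, COL27A1, COL9A2 and COL11A2 rose, COL18A1, COL5A1, COL6A1 and COL4A2 fell, and many genes that were near 0 in untreated cells were measured above the floor. Of the 22 members that passed the filter in control libraries, 6 were called higher and 5 lower, where 11.6% and 16.9% of all such genes were. Their median log2 fold change was 0.23 against -0.16 over all such genes. Over all 41 tested, 25 were called higher and 5 lower, where 37.3% of all genes tested were called (23% higher and 14.3% lower). Of those 25, 19 had entered the test only through treated groups.

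Among the genes already present, COL7A1 rose from 137, 119 and 93.8 untreated to 475, 449 and 446 with doxorubicin, by 1.97 ± 0.09 (SE, adjusted p = 8e-15). COL27A1 measured 112, 104 and 75.2 CPM untreated and 273, 258 and 255 with doxorubicin and rose by 1.43 ± 0.09 (SE, adjusted p = 3.2e-12). COL9A2 rose by 3.31 ± 0.10 (SE, adjusted p = 3.8e-18) to 66.8, 62.1 and 56.9 CPM, and COL11A2 by 4.15 ± 0.16 (SE, adjusted p = 1.2e-16) to 24.6, 21.6 and 21.4 CPM. These 4 genes did not overlap with untreated cells. COL24A1 rose by 1.59 ± 0.26 (SE, adjusted p = 7.4e-06), from 0.716, 0.607 and 0.694 to 2.13, 1.82 and 2.13 CPM, and COL5A2 by 1.26 ± 0.21 (SE, adjusted p = 1e-05), from 1.01, 1.103 and 1.64 to 2.997, 2.997 and 2.97 CPM. Both fibrillar genes remained at a few CPM. COL9A3 was not called and measured 17.8, 22.3 and 20.97 CPM against 31.4, 29.7 and 30.1 untreated.

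Of the collagen IV and multiplexin genes, COL18A1 and COL4A2 were called lower with doxorubicin, and COL4A3, COL4A4 and COL15A1 higher. COL18A1 fell by 3.05 ± 0.15 (SE, adjusted p = 2e-14), from 47.1, 39.4 and 52.6 CPM to 5.12, 5.798 and 5.85, and against the vehicle control, at 16.03, 22.1 and 27.6 CPM, the fall was 1.97. SLC19A1, the overlapping gene on the opposite strand, went from 33.8 CPM on average untreated to 0.554 with doxorubicin, and its part in the fall of COL18A1 was not tested. COL5A1 fell by 1.75 ± 0.11 (SE, adjusted p = 2.8e-12), from 36.97, 32.1 and 32.996 to 10.1, 10.3 and 9.91 CPM. COL6A1 fell by 1.40 ± 0.13 (SE, adjusted p = 1.5e-09), from 14.6, 14.9 and 14.9 to 5.75, 4.47 and 6.59 CPM. Neither overlapped with untreated cells. COL4A2 fell by 1.17 ± 0.07 (SE, adjusted p = 1.8e-12), from 324, 319.8 and 374 to 148, 153 and 152 CPM, a fall of less than 1 with offsets for GC content and length, while COL4A1 (96.4, 105 and 92.8 CPM) was not called. COL6A2 fell by 1.03 ± 0.40 (SE, adjusted p = 0.022), from 0.537, 0.717 and 1.51 to 0.532, 0.442 and 0.347 CPM, and lost its call in 8 of 14 alternatives. COL17A1 remained the highest member per kb, at 576, 577 and 582 CPM against 691, 679 and 759 untreated, and was not called.

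The remaining rises came from genes at or near 0 in untreated cells. Of the 44 members, 17 had at most 3 counts in every untreated library, and all 17 had more than 3 counts in every doxorubicin library, as did 20.7% of the 9294 genes of the table with at most 3 counts in every untreated library. With CKI plus doxorubicin 16 of the 17 did (21.1% of those genes), with CKI alone 1 (2.43%) and with vehicle none (0.151%). Reaching 1 CPM in every doxorubicin library was rarer, with 7 of the 17 (2.51% of those genes), namely COL3A1, COL4A3, COL6A3, COL6A5, COL6A6, COL14A1 and COL20A1. The 9294 genes were not matched to the members in transcript length or restricted to protein-coding genes. The median canonical length was 6300.5 bases for members and 3194 over the genes tested in MDA-MB-231. For genes with at most 3 counts in all over the untreated libraries, bounds or ratios with counting intervals are given in place of fitted fold changes. COL4A3, COL15A1, COL20A1 and COL26A1 had 4 counts there, so fitted fold changes of these genes depend on the prior count.

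COL14A1, a collagen on fibril surfaces, was at 0 in the untreated and CKI libraries, 1.35, 1.87 and 2.08 CPM with doxorubicin and 1.53, 1.67 and 2.87 with both, at least 9.95-fold higher with doxorubicin when 3 counts are allowed in each untreated library. COL20A1, of the same type, measured 0, 0.1103 and 0.126 CPM untreated, 3.09, 2.899 and 2.78 with doxorubicin and 0.879, 1.196 and 1.16 with both. COL21A1 and COL9A1, also fibril-associated, were at 0 untreated, at 0.57997, 1.03 and 0.991 and 1.26, 1.03 and 0.793 CPM with doxorubicin and at 0.833, 0.622 and 1.06 and 0.787, 1.39 and 1.11 with both. Each of these 4 genes stayed under 4 CPM in each library. COL22A1, a collagen of tissue junctions, rose from 0.239, 0.276 and 0.0631 CPM to 1.01, 1.33 and 1.19 with doxorubicin and 1.804, 1.29 and 1.81 with both, by 2.54 ± 0.42 (SE, adjusted p = 1.1e-05) for doxorubicin.

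In the filament family, COL6A5 and COL6A6, chains related to COL6A3, were measured with doxorubicin. COL6A5 was at 0 in the untreated, vehicle and CKI libraries, at 1.45, 1.33 and 1.34 CPM with doxorubicin and at 2.91, 1.63 and 1.91 with both, at least 7.74-fold higher with doxorubicin. COL6A6 measured 0.0596, 0 and 0.0631 CPM untreated, 0.145, 0.0992 and 0 with CKI, 1.74, 1.52 and 1.78 with doxorubicin and 1.71, 1.44 and 1.56 with both, for a ratio of 42.7 (exact interval 11.5 to 357) of doxorubicin to untreated. COL6A3 was at 0, 0.1103 and 0.0631 CPM untreated, 0.291, 0.447 and 0.159 with CKI, 1.305, 1.18 and 1.04 with doxorubicin and 1.48, 1.29 and 1.26 with both, for a ratio of 19.9 (exact interval 6.54 to 98.7) of doxorubicin to untreated. All 3 were called higher and COL6A1 lower.

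Of the fibrillar genes, COL3A1, COL1A2, COL2A1 and COL11A1 stayed under 2 CPM. COL3A1 was at 0, 0 and 0.126 CPM untreated, 1.64, 1.87 and 1.83 with doxorubicin and 1.25, 1.005 and 0.956 with both, for a ratio of 45.2 (exact interval 12.2 to 378) of doxorubicin to untreated. COL1A2 was at 0, 0 and 0.0631 CPM untreated, 1.01, 1.08 and 0.644 with doxorubicin and 0.509, 1.005 and 0.352 with both, for a ratio of 46.4 (exact interval 8 to 1866). COL2A1, the main cartilage collagen, was at 0, 0.1103 and 0.0631 CPM untreated, 0.57997, 1.03 and 0.496 with doxorubicin and 0.555, 0.622 and 0.352 with both, for a ratio of 11.9 (exact interval 3.8 to 59.9). These genes overlapped with no untreated library. COL11A1, a cartilage fibril chain, was at 0 untreated, 0.387, 0.393 and 0.892 CPM with doxorubicin and 0.925, 1.05 and 0.956 with both, at least 3.13-fold higher with doxorubicin. COL1A1, the partner of COL1A2, measured 28.6, 25.4 and 21.4 CPM untreated and 44.1, 41.7 and 38.4 with doxorubicin. COL5A3, another collagen V chain, rose by 1.98 ± 0.42 (SE, adjusted p = 0.0002), from 0.239, 0.221 and 0.315 to 0.918, 0.934 and 1.24 CPM.

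Of the other types, COL10A1 rose from 0.239, 0.0552 and 0.0631 to 2.22, 2.41 and 2.28 CPM, by 4.21 ± 0.39 (SE, adjusted p = 1.1e-09), and COL8A1 from 0.179, 0.331 and 0.252 to 1.45, 1.42 and 1.44 CPM, by 2.46 ± 0.40 (SE, adjusted p = 8e-06). Both belong to the short-chain network type and did not overlap between the groups. COL4A3 rose by 4.21 ± 0.55 (SE, adjusted p = 3.1e-07) to 1.402, 1.87 and 1.44 CPM, and its neighbour COL4A4 by 1.27 ± 0.41 (SE, adjusted p = 0.0071) to 0.628, 1.28 and 0.694 CPM, so both genes of this pair were called higher. The call of COL4A4 was lost without untreated replicate 3 or doxorubicin replicate 2. COL15A1 rose by 3.65 ± 0.62 (SE, adjusted p = 1.4e-05), from 0, 0.165 and 0.0631 to 0.967, 1.08 and 1.14 CPM, and COL26A1, by 3.35 ± 0.70 (SE, adjusted p = 0.00015), from 0.179, 0 and 0.0631 to 1.26, 0.884 and 0.446 CPM. COL19A1, COL23A1 and COL25A1, which the filter left out, were at 0 untreated and at means of 0.262, 0.229 and 0.294 CPM with doxorubicin.

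Markers of other cell types moved with this group as well. The leukocyte marker PTPRC was at 0 in the untreated, vehicle and CKI libraries of A431, at 1.14 to 1.52 CPM with doxorubicin and at 1.196 to 1.96 CPM with both. The 5 fibroblast markers summed to 1.19 to 1.45 CPM untreated, 2.01 to 3.34 with doxorubicin and 2.92 to 3.52 with both, with PDGFRA at 0 untreated and 3 of the 4 tested called higher and 1 lower with doxorubicin. The endothelial markers CDH5 and VWF summed to 21.95 to 25.6 CPM untreated and 10.1 to 11.9 with doxorubicin, with 1 called higher and 1 lower, and to 44.05 to 46.2 CPM with both, with 2 of 2 called higher than with doxorubicin alone. DCN and LUM, members of that fibroblast list in which 3 of the 4 tested were called higher and 1 lower, averaged 0.213 and 0.0651 CPM with doxorubicin. The part of such cells in the rises was not tested.

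**Figure D5:**
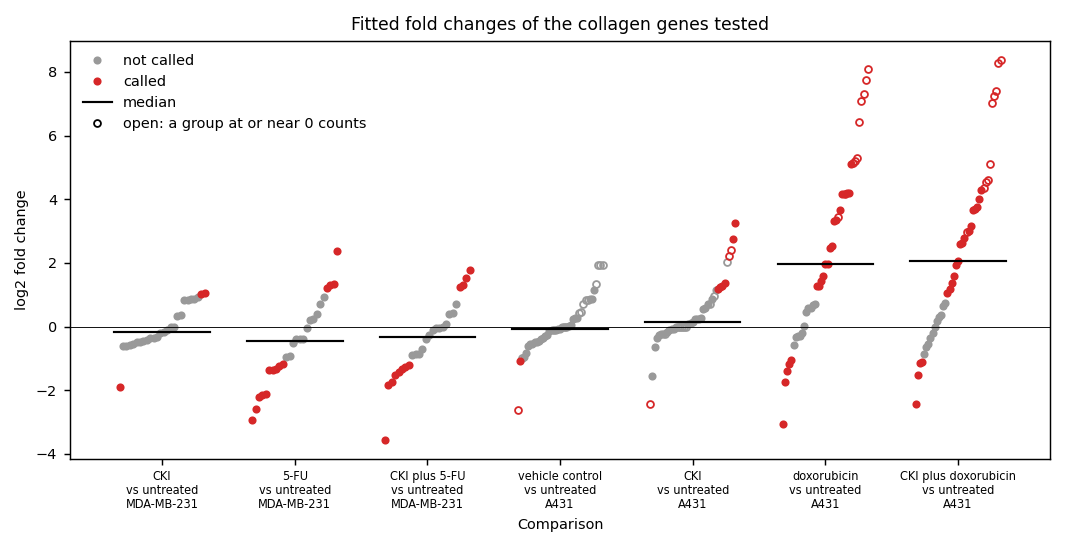
Fitted log2 fold changes of the tested collagen genes in 7 comparisons, 26 genes in MDA-MB-231 and 41 in A431, each in order of size. Red points were called, grey ones were not, black lines are medians, and open points have a group of at most 3 counts in all or no library above 3 counts, so that their fitted size depends on the prior count. With 5-FU most called genes lie below 0, and with doxorubicin most lie above 0.

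With CKI plus doxorubicin, 7 of the 22 members that passed the filter in control libraries were called higher and 4 lower, where 11% and 16.3% of all such genes were. The median log2 fold change was 0.23 against -0.13. Over all 41 tested, 26 were called higher and 4 lower, where 35.5% of all genes tested were called (21.7% higher and 13.8% lower). COL18A1 (9.35, 7.37 and 8.95 CPM) fell by 2.43 ± 0.14 (SE, adjusted p = 3.4e-13) and COL4A2 (126, 114 and 116 CPM) by 1.52 ± 0.08 (SE, adjusted p = 2e-14), the 2 largest falls. COL4A1 (50.3, 52.3 and 55.3 CPM) fell by 1.11 ± 0.06 (SE, adjusted p = 1.4e-13) here, so that both genes of the pair were called. COL5A1 (15.8, 14.1 and 16.1 CPM) fell by 1.15 ± 0.11 (SE, adjusted p = 1.8e-09), a call lost against the vehicle control and with offsets for GC content and length. COL7A1 (343, 373 and 345 CPM) rose by 1.60 ± 0.09 (SE, adjusted p = 2.9e-13) and COL1A1 (60.3, 57.2 and 54.7 CPM) by 1.19 ± 0.11 (SE, adjusted p = 8.7e-10). Every library of both genes was above the untreated ones. COL6A5 was at least 12.2-fold higher than untreated and COL14A1 at least 11.3-fold higher. COL17A1 was not called. The transmembrane genes, which include it, summed to 389.9 ± 13.1 CPM with both agents, 580 ± 3.09 with doxorubicin and 710.6 ± 43.3 untreated (SD, n = 3).

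Against doxorubicin alone, CKI plus doxorubicin called 3 members higher and 3 lower, where 14.9% of all genes tested were called (6.89% higher and 8.03% lower). COL6A2 went from 0.532, 0.442 and 0.347 to 1.34, 1.63 and 1.36 CPM and was higher by 1.70 ± 0.35 (SE, adjusted p = 0.00023). COL6A1, the other collagen VI chain of chromosome 21, went from 5.75, 4.47 and 6.59 to 13.8, 12.1 and 13.1 CPM and was higher by 1.21 ± 0.13 (SE, adjusted p = 3.3e-08). COL5A3 was higher by 1.19 ± 0.26 (SE, adjusted p = 0.00045), at 2.17, 2.34 and 2.57 CPM. In each of these 3 genes the groups did not overlap. COL11A2 fell by 1.54 ± 0.11 (SE, adjusted p = 3.9e-11), from 24.6, 21.6 and 21.4 to 7.59, 8.51 and 7.14 CPM, and COL27A1 by 1.25 ± 0.09 (SE, adjusted p = 7.7e-11), from 273, 258 and 255 to 105, 119 and 105 CPM. The combination libraries of COL27A1 overlapped with the untreated ones. COL20A1 fell by 1.44 ± 0.28 (SE, adjusted p = 9.4e-05), from 3.09, 2.899 and 2.78 to 0.879, 1.196 and 1.16 CPM.

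Against CKI alone, CKI plus doxorubicin called 22 members higher and 5 lower, where 25.7% of all genes tested were called (16.6% higher and 9.06% lower). Of the members called higher, only COL7A1, COL9A2, COL11A2 and COL24A1 had passed the filter in control libraries. The other rises, and COL4A4 among the falls, had entered the test only through treated groups, so the total is no measure of enrichment. COL18A1, at 49.2, 52.6 and 48.4 CPM with CKI, fell by 2.55 ± 0.14 (SE, adjusted p = 2.6e-13), COL4A5, at 42.3, 40.1 and 37.2 CPM, by 1.59 ± 0.09 (SE, adjusted p = 7.4e-13) to 13.6, 12.1 and 13.9, and COL4A4 by 1.31 ± 0.23 (SE, adjusted p = 3.2e-05) to 1.16, 1.63 and 1.36 CPM. COL4A5 was lower in every combination library than in every CKI library. COL5A1 fell by 1.41 ± 0.11 (SE, adjusted p = 6.3e-11) and COL4A2 by 1.34 ± 0.07 (SE, adjusted p = 3.7e-13), the latter a call lost with offsets for GC content and length. Among the rises, COL6A5 was at least 14.3-fold higher and COL14A1 at least 13.3-fold higher than with CKI, while COL7A1 rose by 1.67 ± 0.09 (SE, adjusted p = 3e-13).

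The interaction of CKI and doxorubicin was called for 11 members, 3 above 0 and 8 below, where 19.5% of all genes tested were called (8.56% above 0 and 10.9% below). COL11A2 had a difference of effects of -2.81 ± 0.23 (SE, adjusted p = 7.6e-10), COL9A2 of -2.10 ± 0.14 (SE, adjusted p = 1.8e-11) and COL27A1 of -1.23 ± 0.13 (SE, adjusted p = 4.7e-08). COL9A2 and COL11A2 rose with CKI alone, and COL11A2 was called lower with both agents than with doxorubicin alone. COL9A2 was not called there, at log2 fold changes from untreated of 2.59 with both and 3.31 with doxorubicin. In collagen IV, COL4A4 had -2.59 ± 0.47 (SE, adjusted p = 5.8e-05), COL4A3 -2.96 ± 0.74 (SE, adjusted p = 0.0017) and COL4A5 -1.26 ± 0.14 (SE, adjusted p = 5.8e-08). The value of COL4A3 rests on 4 counts over the untreated libraries. COL6A2 had 1.55 ± 0.50 (SE, adjusted p = 0.011), lost without untreated replicate 3 and against the vehicle control. Calls for COL3A1 (-3.12), COL6A3 (-2.04), COL8A1 (1.85) and COL10A1 (2.51) rested on fewer than 20 counts in each of the untreated and CKI groups, and the last 3 were lost in 10 or more of 19 alternatives.

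The effect of CKI was also compared between the lines, in a fit of the 12 libraries that were untreated or given CKI, as the log2 effect in A431 minus that in MDA-MB-231. It was called for 8 of 28 members tested, 7 above 0 and 1 below, where 18.5% of all genes tested were called (8.87% above 0 and 9.62% below). Without untreated MDA-MB-231 replicate 1 the count of calls was 9. COL4A4 had a difference of 2.38 ± 0.55 (SE, adjusted p = 0.0031) and COL4A5 of 1.42 ± 0.15 (SE, adjusted p = 4.8e-06), the latter at 19.01, 16.99 and 17.1 CPM untreated and 16.02, 16.8 and 14.4 with CKI in MDA-MB-231. COL9A2 differed by 1.85 ± 0.24 (SE, adjusted p = 4e-05), with 11.3, 17.97 and 18.9 and 11.7, 12.2 and 11.2 CPM in MDA-MB-231, and COL11A2 by 1.29 ± 0.38 (SE, adjusted p = 0.014). These 4 genes were called in A431 with CKI and not in MDA-MB-231. COL6A1 differed by 1.18 ± 0.20 (SE, adjusted p = 0.00031), at 14.6, 14.9 and 14.9 CPM untreated and 21.6, 22.03 and 22.1 with CKI in A431, and 138, 214 and 229.8 and 121, 126 and 133 in MDA-MB-231. COL17A1, which rose in MDA-MB-231, differed by -1.15 ± 0.11 (SE, adjusted p = 3.2e-06). COL6A3 (2.84) and COL1A2 (3.95) were at 3 counts or fewer over the untreated A431 libraries, and the call of COL1A2 was lost in 5 of 19 alternatives.

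Genes that make, export, cross-link, bind or degrade collagen were followed from 6 lists, whose counts stand beside the share of all genes called in the same comparison. With 5-FU in MDA-MB-231, where 6.01% of all genes tested were called higher and 7.31% lower, none of 19 tested genes of chain modification and folding rose and 4 fell, among them COLGALT2 (by 1.57 ± 0.12, SE), which adds galactose to collagen, P3H3 (by 1.07 ± 0.30), a relative of prolyl 3-hydroxylase, and P4HA1 (by 1.06 ± 0.10), a subunit of the prolyl hydroxylase that lets the helix form. Of 10 tested genes of processing and cross-linking, 3 fell, LOXL1 (by 3.16 ± 0.30) and LOXL4 (by 2.21 ± 0.09), which cross-link collagen, and ADAMTS14 (by 1.49 ± 0.19), which trims procollagen. Of 16 tested basement membrane partners, 6 fell and 2 rose, with falls of 2.18 ± 0.41 for HSPG2 and 2.08 ± 0.36 for LAMA5 and a rise of 2.24 ± 0.28 for LAMA1. In 5 tested collagenases and gelatinases, 3 rose, of which MMP1, the interstitial collagenase, rose by 3.43 ± 0.07. None of 11 secretion genes and 1 of 8 receptors, MRC2, an uptake receptor for collagen, was called (a fall of 1.16 ± 0.20).

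CKI alone in MDA-MB-231 called 4 genes of these lists, where 3.76% of all genes tested were called higher and 2.21% lower. MMP1 rose by 2.94 ± 0.07 and LAMA1 by 1.05 ± 0.32, and LOXL4 fell by 1.204 ± 0.08 and COLGALT2 by 1.15 ± 0.12. With CKI plus 5-FU, where 4.29% of all genes were called higher and 4.76% lower, the lists had 3 rises and 10 falls, in which MMP1 rose by 3.87 ± 0.07, and LOXL4, LOXL1 and HSPG2 fell by 2.19 ± 0.09, 2.01 ± 0.27 and 2.10 ± 0.40.

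In A431 with CKI, 12% of all genes tested were called higher and 10.4% lower. There 3 of 17 basement membrane partners rose and none fell, namely NID1 (by 1.40 ± 0.07), which links collagen IV to laminin, HSPG2 (by 1.28 ± 0.14), the proteoglycan perlecan, and PXDN (by 1.00 ± 0.06), which forms the sulfilimine cross-links of collagen IV. Of 11 receptors 3 rose and 1 fell, with rises of 1.73 ± 0.07 for ITGA2 and 1.22 ± 0.50 for the receptor kinase DDR2, and ITGB1, which pairs with ITGA2 in a collagen-binding integrin, was the other gene called higher. In the 18 tested genes of modification and folding, SERPINH1, the collagen chaperone HSP47, fell by 1.33 ± 0.05 and FKBP14 rose by 1.16 ± 0.08. SEC24D, a coat protein of collagen export, rose by 1.70 ± 0.07 and was the 1 secretion gene called of 10. Processing genes had 1 rise and 2 falls of 12, and collagenases and gelatinases 2 rises and 1 fall of 5, with MMP13 up by 1.45 ± 0.19 and MMP2 by 1.31 ± 0.06.

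With doxorubicin in A431, 23% of all genes tested were called higher and 14.3% lower. Modification and folding had 2 rises and 3 falls of 18, where CRTAP and PPIB, both of the prolyl 3-hydroxylation complex, fell by 1.63 ± 0.08 and 1.30 ± 0.06, and COLGALT2 was at 0 in every untreated library and at 3.95 CPM on average with doxorubicin. Basement membrane partners had 3 rises and 4 falls of 17, with LAMA5 and PXDN lower by 2.75 ± 0.15 and 1.63 ± 0.07 and LAMA2 and NID2 higher by 2.60 ± 0.22 and 2.38 ± 0.30. Receptors had 4 rises and 2 falls of 11, processing genes 3 and 3 of 12, collagenases and gelatinases 2 and 1 of 5, and secretion genes 1 and 1 of 10. With both agents, where 21.7% of all genes were called higher and 13.8% lower, modification and folding had 1 rise and 6 falls, among them PPIB (by 1.52 ± 0.06), CRTAP (by 1.37 ± 0.08) and COLGALT1 (by 1.15 ± 0.07). Basement membrane partners had 4 rises and 6 falls, receptors 5 and 1, processing genes 4 and 3, and collagenases and gelatinases 2 and 2. Adding doxorubicin to CKI lowered PXDN, NID1 and HSPG2 by 2.02 ± 0.06, 1.91 ± 0.07 and 2.34 ± 0.14.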

How the data were processed

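RNA from A431 and MDA-MB-231 cells was sequenced as unstranded paired-end libraries, 3 for each of 9 groups. Per the submitters' processing notes, reads were trimmed with Trim Galore 0.3.7 and aligned to hg19 with STAR 2.5.3a, and the notes also name edgeR. The authors deposited raw counts per Entrez gene, and the counting tool and annotation are not given in the sources used here. Of 24566 rows, 24422 matched a symbol, and 0 columns belonged to no sample.

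Low counts were removed with filterByExpr, libraries were scaled by TMM, and glmQLFit and glmQLFTest of edgeR 4.0.16 (R 4.3.3) were fitted over all genes of a line, with Benjamini-Hochberg adjustment over all genes tested. Genes were called when the adjusted p-value was below 0.05 and the log2 fold change exceeded 1 in size. The SE is the log2 fold change divided by the square root of F. Where a group held no count, bounds allow 3 counts in every library. Where a group held 1 to 3 counts in all, the ratio is given with an exact 95% interval. Bounds and intervals cover counting error only. The fit was tested on simulated data. Lengths came from canonical transcripts on GRCh37, and promoter sequences from RefSeq on GRCh38.p14.

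Members were chosen for values of single libraries by a rule. It took the 6 highest members per kb in untreated cells of each line and the 2 largest called changes in each direction of each comparison. It also took members called in at least 3 comparisons of a line and members called in an interaction. Not every group is printed for each of these members. The members and lists were chosen with earlier results of these data known. Alternatives were DESeq2 1.42.0, other scaling factors, no filter or at least 10 counts in every library, offsets for GC content and length, the replicate number as a block, only the compared groups, the vehicle in place of untreated cells, and each library left out.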

Additional observations from a re-analysis of the deposited data

Results flagged for a closer look

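These collagen genes stood out because the effect of one agent differed with the other agent or with the cell line, in an edgeR test of the difference itself. Values are log2 differences of effects. For the effect of CKI with 5-FU minus that without it in MDA-MB-231, 6 genes passed, with differences of COL1A1 -1.37, COL4A5 1.01, COL5A1 1.10, COL6A3 1.53, COL13A1 1.85 and COL15A1 -2.51. For the effect of CKI with doxorubicin minus that without it in A431, 11 genes passed, with differences of COL3A1 -3.12, COL4A3 -2.96, COL4A4 -2.59, COL4A5 -1.26, COL6A2 1.55, COL6A3 -2.04, COL8A1 1.85, COL9A2 -2.10, COL10A1 2.51, COL11A2 -2.81 and COL27A1 -1.23. Those of COL3A1, COL6A3, COL8A1 and COL10A1 rest on few counts without doxorubicin, and that of COL4A3 on 4 counts over the untreated libraries. For the effect of CKI in A431 minus that in MDA-MB-231, 8 genes passed, with differences of COL1A2 3.95, COL4A4 2.38, COL4A5 1.42, COL6A1 1.18, COL6A3 2.84, COL9A2 1.85, COL11A2 1.29 and COL17A1 -1.15. Those of COL1A2 and COL6A3 rest on at most 3 counts over the untreated A431 libraries.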

How the results depend on the processing

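Requiring at least 10 counts in every library removes genes near 0 from the test and left 9 calls with doxorubicin, 9 with CKI plus doxorubicin against untreated, 3 against doxorubicin and 8 against CKI, 4 with CKI in A431, 1 with vehicle, 4 for the CKI by doxorubicin interaction, 12 between the lines and 5 for the difference of the CKI effect between lines. Offsets for GC content and length gave 3 calls for CKI plus 5-FU against CKI and 1 for vehicle, and a fit of only the 2 compared groups gave 1 for vehicle. Leaving out 1 library at a time gave, in MDA-MB-231, 2 to 4 calls with CKI, 13 to 14 with 5-FU, 12 to 14 with CKI plus 5-FU, 3 to 4 against 5-FU, 4 to 7 against CKI and 5 to 8 for the interaction. In A431 it gave 1 to 3 with vehicle (1 without untreated replicate 2, untreated replicate 3 or vehicle replicate 2), 6 to 10 with CKI, 30 to 32 with doxorubicin, 29 to 33 with both agents, 6 to 7 against doxorubicin, 27 to 30 against CKI and 8 to 10 for the interaction. Between the lines it gave 20 to 22, and for the difference of the CKI effect 7 to 9. The interaction of COL8A1 reversed to -0.76 (edgeR adjusted p = 0.56) when the vehicle control replaced untreated cells, and the cause was not tested. In all, 212 recomputed counts stayed within 1.5 times the reported count and 17 did not, and for single genes 2169 recomputed values kept their call, 104 lost it and 1 reversed.

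Replicate numbers are shared between groups, but the correlation of deviations of same-numbered libraries ran from -0.29 to 0.12. These values show no clear shared deviation and cannot tell whether same-numbered cultures were set up together. With the replicate block, calls numbered 8 for CKI in A431, 9 for the CKI by doxorubicin interaction, 21 between the lines and 7 for the difference of the CKI effect, and with the block and the offsets 3 for CKI plus 5-FU against CKI and 1 for vehicle. Genes with few counts, below about 1 CPM, set the limit of depth.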
